A study of Mus musculus with 4 samples.

Results

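MHC class II high macrophages of the mouse heart were taken as cells with complement C1q transcripts, little or no transcript of 4 resident macrophage genes, and a large share of MHC class II transcripts. By the rule, a cell barcode needed at least 1000 UMIs (unique molecular identifiers, 1 per counted transcript) and at most 20% of UMIs from mitochondrial genes. A macrophage had at least 15 UMIs of C1qa, C1qb and C1qc, at most 3 of the fibroblast genes Dcn and Col1a1, at most 2 of the endothelial genes Pecam1 and Cdh5 and at most 1 of the lymphocyte genes Cd79a and Cd3e. A member had, in addition, at most 1 UMI of Timd4, Lyve1, Folr2 and Fcna, and at least 1% of its UMIs from the class II genes H2-Eb1, H2-Ab1, H2-Aa and Cd74. The rule found 731 members among 3112 macrophages, 21581 kept barcodes and 26765 deposited barcodes.

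MHC class II molecules carry peptides of endocytosed proteins to the cell surface, where CD4+ T cells read them. H2-Aa and H2-Ab1 are the chains of I-A, H2-Eb1 is the beta chain of I-E, and Cd74 is the invariant chain that fills the groove until it is cut away by cathepsin S (Ctss). H2-DM then exchanges the remaining fragment for a peptide, H2-O restrains H2-DM, and Ciita switches the whole set of genes on. In the heart, macrophages that express Timd4, Lyve1 and Folr2 are known as long-lived residents, while class II high macrophages are known as a set that blood monocytes help to replenish. Class II high macrophages share this machinery with dendritic cells and B cells.

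Class II genes are known to carry a Y box close to the transcription start, the element read by the factor NF-Y beside the one read by RFX. The letters CTGATTGG, searched on both strands in windows of 300 bases (250 before and 50 after a RefSeq transcription start, GRCm38.p6), were found once each in the windows of H2-Aa, H2-Eb1 and H2-Oa. Their first base lay at -51, -62 and -46 from the start. These are 2 of the chains that chose the cells and 1 accessory chain that the rule did not use, and the 150 bases before each start are shown so that the element can be seen in place. The windows of H2-DMa, H2-DMb1, H2-DMb2, H2-Ob, Cx3cr1 and Il1b did not hold the letters. H2-Ab1 and Ciita had no window to search, and no window was read for Cd74, so the element was not tested in these genes. Of 32851 promoter windows, 1346 held them (4.10%). The capitals mark the 8 letters, each sequence runs 5′ to 3′ on the gene's strand, and the places are chr17:34287824-34287973 (minus strand), chr17:34305717-34305866 (plus strand) and chr17:34092229-34092378 (plus strand).
H2-Aa: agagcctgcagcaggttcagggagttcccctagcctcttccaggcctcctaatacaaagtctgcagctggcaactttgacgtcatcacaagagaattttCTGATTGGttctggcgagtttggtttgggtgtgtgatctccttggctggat
H2-Eb1: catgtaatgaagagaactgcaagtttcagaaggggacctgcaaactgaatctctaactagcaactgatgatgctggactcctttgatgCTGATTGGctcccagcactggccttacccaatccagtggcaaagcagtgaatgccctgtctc
H2-Oa: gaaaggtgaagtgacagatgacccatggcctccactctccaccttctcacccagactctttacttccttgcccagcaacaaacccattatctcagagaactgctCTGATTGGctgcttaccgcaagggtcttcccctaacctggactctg

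The cells came from hearts of 6-week-old offspring of dams fed a diet high in resistant starch, a fermentable fibre (2 libraries, high_fibre 1 and 2), and of dams fed a control diet low in it (2 libraries, control_diet 1 and 2). The dams ate these diets through pregnancy and lactation, and all offspring had standard chow from weaning at 3 weeks. Hearts were digested by perfusion with collagenase IV and dispase II, and live, metabolically active, nucleated cells were sorted before 10x Genomics 3′ capture, so shares describe sorted cells. The labels give neither strain, sex nor the number of animals in a library, so p-values measure the spread between these libraries. Library totals ran from 27577599 to 69600492 UMIs. Barcodes were shared between libraries: of the 2966 barcodes of control_diet 2, 802 also occurred in another library, and 13 of its 54 members carried such a barcode, against 8, 3 and 2 members in high_fibre 1, high_fibre 2 and control_diet 1. The shared barcodes of control_diet 2 had a median of 17333 UMIs, against 656, 685 and 630 UMIs in high_fibre 1, high_fibre 2 and control_diet 1. Of the members of control_diet 2, 0 had a barcode that was deeper in another library, against 3, 3 and 2 members in those libraries. Results were therefore also computed without all shared barcodes, and without only those deeper in another library.

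The values that chose the cells are given as a description, with no test. High_fibre 1 and 2 held 263 and 236 members, and control_diet 1 and 2 held 178 and 54. The 4 class II genes made up a median of 5.21% of a member's UMIs (quartiles 3.28% and 7.12%, highest 17.3%). At the edge of the rule, the lowest member stood at 1.01%, and the highest macrophage kept out by this value alone at 0.998%. Between 1% and 2% lay 97 members. Among macrophages with at most 1 UMI of the 4 resident genes, 35 lay between 0.5% and 1% and were left out by the rule. Of the members, 572 had no UMI of the 4 resident genes and 159 had 1, while 86 and 68 class II high macrophages with 2 and 3 such UMIs stayed outside. Members had a median of 124 C1q UMIs.

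**Figure D1:**
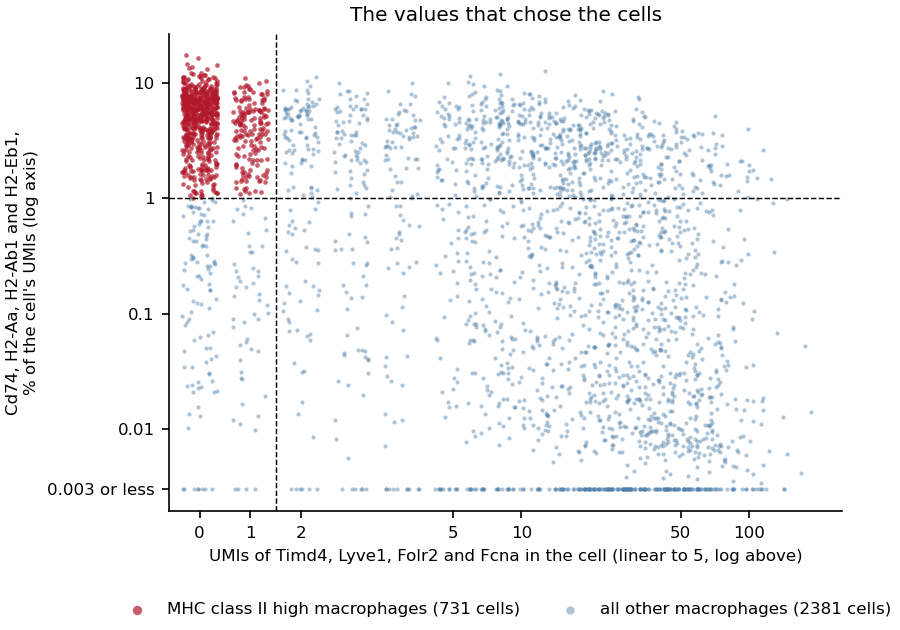
Each point is 1 of 3112 macrophages from 4 libraries; the horizontal axis gives UMIs of Timd4, Lyve1, Folr2 and Fcna (linear to 5, log above, points spread sideways around whole numbers), the vertical axis the share of the cell's UMIs from the 4 class II genes (log axis). Members (red, 731 cells) fill the upper left corner that the dashed lines of the rule cut out, and the other 2381 macrophages run without a gap from there to cells with many resident UMIs and few class II UMIs.

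Sums per library show the size of the gap that the rule made. Values are CPM (UMI counts scaled to a common library size, TMM-normalized within each comparison, so the same gene can differ slightly between comparisons). Cd74 stood at 30327 and 27309 CPM in members of the high_fibre libraries and 30985 and 29736 CPM in members of the control_diet libraries, against 6308 to 8083 CPM in all other macrophages. H2-Eb1 stood at 8471 to 10564 CPM in members, against 1452 to 2172 CPM in the others. Folr2 stood at 11.97 to 17.04 CPM in members, against 1042 to 1074 CPM in the others.

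The label was checked against markers outside the rule. The 8 macrophage markers, among them Cd68, Csf1r and Mertk, summed to 4510 to 5780 CPM in members, against 4012 to 4742 CPM in other macrophages and 197 to 319 CPM in cells that are not macrophages. Flt3 and Zbtb46, which help to define conventional dendritic cells, were low in members. Flt3, a growth factor receptor of dendritic cells, stood at 1.71 to 4.01 CPM and Zbtb46, a dendritic transcription factor, at 1.31 to 4.05 CPM. The 12 dendritic markers summed to 55.4 to 136 CPM in members, against 140 to 181 CPM in other macrophages. Of the 9 of them that could be tested, 3 were higher in members and 1 lower by the edgeR comparison with other macrophages. The median log2 fold was 0.38 and 6 of the 9 were above 0, so most single genes did not follow the lower sum. Without thinning, 1.52% to 2.25% of members held a Flt3 UMI, against 0% to 0.582% of other macrophages. Xcr1, of cross-presenting dendritic cells, stood at 4.37 and 10.0 CPM in high_fibre members and 0 and 0 CPM in control_diet members. Ly6c2, a marker of classical monocytes, stood at 0 to 8.52 CPM in members, and the B-cell factor Pax5 was at 0 in all 4 libraries. The whole monocyte list of 8 genes, which holds Ccr2, summed to 202 to 338 CPM in members, against 59.2 to 86.3 CPM in other macrophages and 234 to 354 CPM in cells that are not macrophages. Most of the sum in members was Ccr2 alone. It stood at 165 and 283 CPM in high_fibre members, of sums of 202 and 338 CPM. In control_diet members it stood at 216 and 279 CPM, of sums of 256 and 294 CPM. Of the 7 list genes that could be tested, 1 was higher in members and 1 lower by edgeR, so the higher sum is no rise of the list. The 10 B-cell markers summed to 275 to 367 CPM in members, against 292 to 322 CPM in other macrophages and 819 to 1381 CPM in cells that are not macrophages. The part of monocytes and B cells in these sums was not tested.

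Cx3cr1, the fractalkine receptor, and Il1b, the cytokine interleukin-1 beta, are markers given with the label and were not tested against other macrophages. Cx3cr1 stood at 391 and 538 CPM in members of the high_fibre libraries and at 627 and 576 CPM in those of the control_diet libraries, against 188 to 304 CPM in other macrophages. After each cell was thinned to 3000 UMIs, 58.4% to 76.0% of members held a Cx3cr1 UMI, against 32.5% to 46.1% of other macrophages and 0% to 0.334% of endothelial cells, which should lack it. Unthinned, the shares were 83.3% to 92.7%, 54.1% to 70.0% and 0.261% to 0.732%, at median depths of 8558.5 to 11713, 10189 to 14107 and 4956 to 6384 UMIs. Il1b stood at 2088 and 693 CPM in members of high_fibre 1 and 2 and at 2008 and 552 CPM in members of control_diet 1 and 2, against 440, 135, 324 and 244 CPM in other macrophages of the same libraries. The repeat 1 libraries were the high ones in both diets. Other macrophages with at most 1 UMI of the 4 resident genes and class II under 1% lay closer to members than the pooled others did. Over the 4 libraries, Cx3cr1 averaged 444 CPM in these cells, against 549 CPM in members, and Il1b 731 CPM, against 1376 CPM.

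The share of members among macrophages was not told apart between the diets by the test. Members were 27.7% and 20.4% of macrophages in the high_fibre libraries and 24.1% and 20.5% in the control_diet libraries, a mean of 24.03% ± 5.16 against 22.3% ± 2.55 (SD, n = 2). The groups overlapped, the difference was 1.78 percentage points, and the exact two-sided permutation test gave p = 1. With 2 libraries against 2 this exact permutation test cannot go below p = 0.333. Of all kept barcodes, members were 4.40% and 3.20% in the high_fibre libraries and 3.14% and 2.11% in the control_diet libraries (exact permutation p = 0.333). The difference in the share of macrophages changed sign without all shared barcodes (-1.65 points), which took out 118 of the 264 macrophages of control_diet 2, after thinning to 3000 UMIs (-0.06 points), without high_fibre 1 (-1.87 points) and without control_diet 2 (-0.02 points). It was 1.96 points when only barcodes that were deeper in another library were left out.

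**Figure D2:**
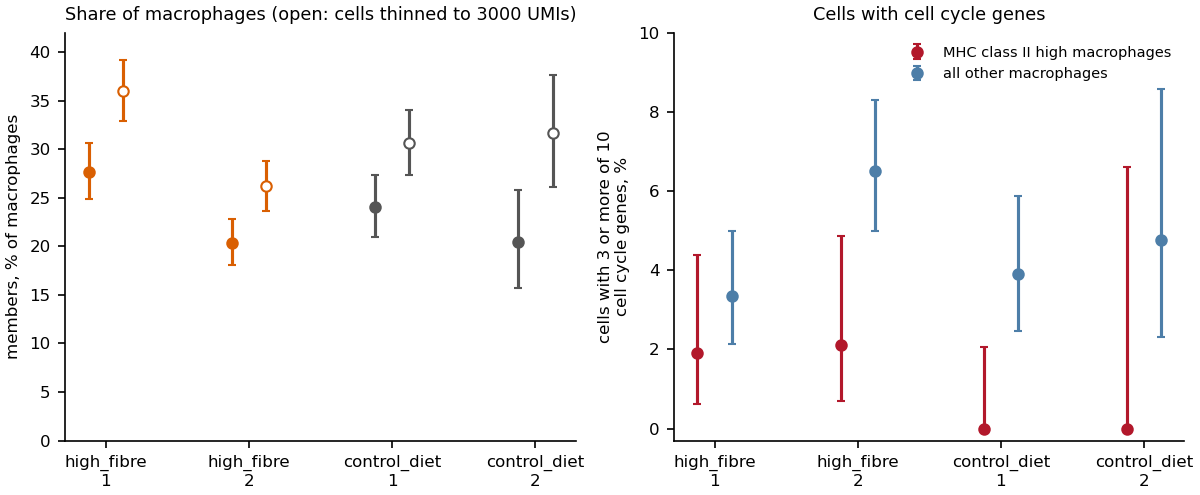
Left, members as a percentage of macrophages in each library, with exact binomial 95% intervals that cover counting error only; filled points use all UMIs and open points cells thinned to 3000 UMIs, where the rule was applied again to the thinned counts. Right, the percentage of members (red) and of all other macrophages (blue) with at least 3 of 10 cell cycle genes, with the same intervals; members had 5 such cells in each high_fibre library and 0 in each control_diet library.

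Set against all other macrophages, members had more RNA of the class II machinery, of the chemokine receptor Ccr2 and of the chemokines Ccl3 and Ccl4, and less of many genes of resident macrophages. The comparison addressed how cells chosen on 17 genes differ in the genes outside the rule. UMIs were summed per library over members and over the other 2381 macrophages, and edgeR's quasi-likelihood test with the library as a block called 2210 of 10163 genes (21.7%) at an adjusted p under 0.05, of which 1239 (12.2%) were higher and 971 (9.55%) lower. These genes were measured in the same cells that the rule chose, so the test describes the chosen cells. Members were also shallower: their median depth per library was 8558.5 to 11713 UMIs, against 10189 to 14107 UMIs in the others. For a comparison at equal depth, cells were thinned to 3000 UMIs, shallower cells were dropped and the rule was applied again. This gave 341 and 296 members in high_fibre 1 and 2 and 231 and 84 in control_diet 1 and 2, so the members were not the same set. There the test called 1230 genes, and the 28 genes of largest fold named by the rule for named genes all stayed called in the same direction.

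The class II machinery rose with the class II chains. Of 15 tested genes of class II accessory function and co-stimulation, 9 were higher, 1 lower and 5 not called, with a median log2 fold of 0.77 against 0.01 over all genes. H2-DMb1, a chain of the peptide exchanger H2-DM (chr17:34153072-34160230, GRCm38, plus strand), stood at 625 and 635 CPM in members of the high_fibre libraries and at 643 and 828 CPM in those of the control_diet libraries, against 171, 169.7, 174 and 217 CPM in other macrophages. Its log2 fold was 1.89 (SE 0.05, edgeR adjusted p = 4.13e-16), and every member value lay above every other value. Where 4 values follow each other, they are those of high_fibre 1, high_fibre 2, control_diet 1 and control_diet 2, and rises and falls are on the log2 scale. Ciita, the transactivator of class II genes (chr16:10480059-10528418), stood at 136, 128, 126 and 185 CPM in members, against 37.0, 36.2, 37.8 and 36.5 CPM in the others (log2 fold 1.90, SE 0.09, edgeR adjusted p = 3.05e-12). H2-DMa rose by 1.49 and Ctss by 0.86.

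The scarcer accessory chains moved the same way. H2-Oa, whose promoter is shown above with its Y box, stood at 4.37, 7.52, 2.70 and 6.84 CPM in members, against 0.61, 0.94, 1.39 and 0 CPM in other macrophages, a log2 fold of 2.65 (SE 0.55, edgeR adjusted p = 0.0012). H2-Ob rose by 1.64 and H2-DMb2, a near copy of H2-DMb1 whose reads may not separate fully from it, by 1.40. The co-stimulatory ligand Cd86 rose by 0.32 and the activation marker Cd83 by 0.77, while the receptor Cd40 fell by 0.85. The regulatory factors Rfx5, Rfxap and Rfxank, which are known to act beside Ciita, had log2 folds of 0.23, 0.14 and 0.10 and were not called.

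Class I presentation showed a smaller difference in the same direction. Of 13 tested genes 10 were higher and 0 lower, with a median log2 fold of 0.28. H2-K1, a class I heavy chain, rose by 0.34, the peptide transporter subunit Tap1 by 0.51 and the immunoproteasome subunit Psmb8 by 0.42. Interferon-response genes did not follow: of 22 tested, 2 were higher and 8 lower, among them Ifit3, which fell by 0.97, and Gbp7, which fell by 1.02, against Irf1, which rose by 0.32.

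Among receptors, Ccr2, which draws monocytes and their descendants to Ccl2 and Ccl7, had the largest rise of the named genes. It stood at 165 and 283 CPM in members of the high_fibre libraries and at 216 and 279 CPM in those of the control_diet libraries, against 17.6, 40.7, 18.4 and 26.9 CPM in other macrophages (log2 fold 3.16, SE 0.10, edgeR adjusted p = 3.00e-12). Thinned to 3000 UMIs, 14.7% to 23.9% of members held a Ccr2 UMI, against 1.98% to 5.47% of other macrophages and 0% to 0.279% of endothelial cells. Unthinned, the shares were 20.4% to 25.8%, 4.22% to 8.46% and 0.0870% to 0.537%, so most members held no Ccr2 UMI. Genes of monocyte-derived macrophages, with Ccr2 among them, did not rise as a set. Of 17 tested, 3 were higher (Ccr2, the integrin Itgax and the sialophorin Spn), 3 lower and 11 not called. Of all tested genes 12.2% were higher and 9.55% lower.

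Of 17 tested chemokine, growth factor and purinergic receptors, 9 were higher and 5 lower. Tgfbr1, a receptor of transforming growth factor beta, stood at 139, 180, 193 and 202 CPM in members, against 47.9, 56.4, 66.6 and 63.2 CPM in the others, with a log2 fold of 1.60. Csf2ra, a receptor chain for the growth factor GM-CSF, rose by 0.60. Csf1r, the receptor that macrophages need for survival, differed little, with a fall of 0.13 (edgeR adjusted p = 0.012). P2ry12, a purinergic receptor, fell by 0.97. Of 20 tested pattern recognition and Fc receptors, 9 were higher and 4 lower. Fcgr4, an activating receptor for antibody, stood at 87.9, 94.2, 142 and 120 CPM in members, against 29.9, 31.1, 33.3 and 47.4 CPM in the others (log2 fold 1.67). Tlr2 rose by 0.71 and Cd14 by 0.68, while Tlr4 fell by 0.39 and Tlr7 by 0.51.

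Chemokines split in both directions. Of 25 tested chemokines and cytokines, 8 were higher and 7 lower. Ccl4, an inflammatory chemokine, stood at 1810.0 and 1078 CPM in members of the high_fibre libraries and at 2044 and 1710.2 CPM in those of the control_diet libraries, against 528, 429, 759 and 477 CPM in other macrophages (log2 fold 1.59, SE 0.11, edgeR adjusted p = 0.00054). Ccl3 rose by 1.46, Cxcl16 by 1.13, the growth factor Pdgfb by 1.14 and tumour necrosis factor (Tnf) by 0.92. In contrast, Ccl24, an eotaxin that draws eosinophils, stood at 54.2, 48.1, 54.7 and 37.6 CPM in members, against 353, 395, 399 and 388 CPM in the others, a fall of 2.92. Ccl8 fell by 3.78 and Ccl7 by 2.21. Ccl2, which like Ccl7 is a ligand of Ccr2, fell by 0.54.

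**Figure D3:**
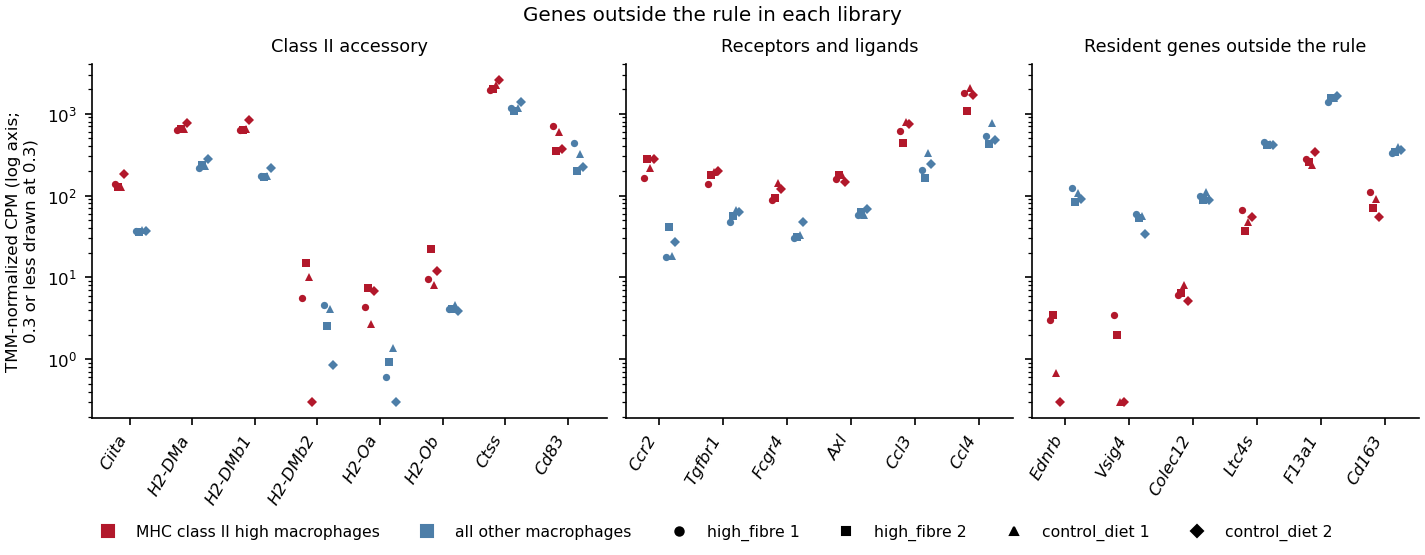
TMM-normalized CPM on a log axis (values of 0.3 or less are drawn at 0.3) of 20 genes outside the rule, in members (red, left of each pair) and all other macrophages (blue, right), 1 symbol per library. Class II accessory genes and receptors lie higher in members, apart from the overlapping H2-DMb2 and Cd83 values, and the 6 resident genes lie lower in every library.

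Genes of resident macrophages outside the rule fell nearly throughout. Of 21 tested, 19 were lower, 1 higher and 1 not called, with a median log2 fold of -1.58. The members were chosen for low Timd4, Lyve1, Folr2 and Fcna, so this count is not independent of the rule. Ednrb, the endothelin B receptor, stood at 3.06, 3.51, 0.68 and 0 CPM in members, against 125, 84.3, 108 and 90.4 CPM in the others (log2 fold -5.46, SE 0.21, edgeR adjusted p = 2.04e-13). Vsig4, a complement receptor of tissue macrophages, fell by 4.84, and Ltc4s, which makes leukotriene C4, by 3.07. F13a1, the coagulation factor XIII A chain, fell by 2.49, and the haemoglobin scavenger receptor Cd163 by 2.05. Maf, a macrophage transcription factor, fell by 0.91.

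Among genes of scavenging, lysosomes, iron and complement, more were lower than higher in each list. Of 15 tested phagocytic and scavenger receptors, 9 were lower and 3 higher. Colec12, a scavenger receptor, fell by 3.86 and Cd36 by 0.77, while Axl, which binds dying cells through Gas6, rose by 1.47 and the integrin chain Itgb5 by 0.84. Gas6 itself fell by 1.58. Lysosomal genes split, with 9 of 18 lower and 6 higher: the cathepsins Ctsd and Ctsb fell by 0.98 and 0.58. Slc40a1, ferroportin, the exporter of iron, stood at 17.1, 14.03, 21.6 and 6.84 CPM in members, against 92.7, 106, 169.8 and 120 CPM in the others, a fall of 2.87. Of 11 iron and haem genes 5 were lower and 2 higher, with the ferritin chain Fth1 at a rise of 0.32. Of 12 complement genes outside C1q, 7 were lower and 1 higher, with C4b at a fall of 3.95 and properdin (Cfp) at 1.81.

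Genes of acute activation were higher in members. Of 17 immediate early genes, 13 were higher and 0 lower (median log2 fold 0.46), and of 16 NF-kappaB feedback genes 7 were higher and 0 lower (median 0.28). Atf3 rose by 0.90, Nr4a1 by 0.91, Egr1 by 0.64 and Fos by 0.46, and Nlrp3, the sensor of an inflammasome, by 0.88. Of 13 heat shock genes 11 were higher and 1 lower (median 0.40), with Dnajb1 at a rise of 0.73 and Hspb1 at a fall of 0.22.

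Macrophage transcription factors outside these lists mostly rose, with 9 of 17 higher and 3 lower. Runx3 stood at 224, 102, 149 and 121 CPM in members, against 64.8, 33.8, 43.2 and 35.1 CPM in the others (log2 fold 1.74, SE 0.08, edgeR adjusted p = 1.18e-12). Irf8, needed for monocyte and dendritic development, rose by 0.86, Batf3 by 0.72 and Irf5 by 0.61, while Irf4 fell by 0.76. Lipid genes were mixed, with 3 of 17 higher, 5 lower and 9 not called: Cd9 rose by 1.47 and the sterol exporter Abcg1 by 0.97, and its relative Abca1 fell by 0.83. Of 18 cholesterol synthesis genes 5 were higher and 0 lower. Cell cycle genes were lower in 7 of 20 and higher in 1, with Cdk1 at a fall of 1.56. Of 15 glucocorticoid-response genes 6 were higher and 4 lower, so the list had no common direction.

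Genes through which fibre products could be read were hardly seen. Short-chain fatty acids, which gut bacteria make from resistant starch, are known to act through Ffar2 and Ffar3, and both were at 0 UMIs in every library, in members and other macrophages alike. Of the 10 genes of this list 5 were abundant enough to test and 1 was called. Over all tested genes 21.7% were called, so 1 of 5 does not set the list apart. The called gene was the lactate transporter Slc16a3, at 17.1, 15.04, 14.2 and 6.84 CPM in members, against 10.7, 6.95, 7.40 and 5.61 CPM in the others (log2 fold 0.85, SE 0.20, edgeR adjusted p = 0.00345).

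How much of this profile goes with class II and how much with the lack of resident transcripts was read from other sets of macrophages. The other macrophages held 156 cells with at most 1 resident UMI and class II under 1%, 828 with at least 2 resident UMIs and class II of at least 1%, and 1397 with at least 2 resident UMIs and class II under 1%. Against the 156 cells that match members in resident UMIs, edgeR called 195 of 6297 genes (3.1%), 130 higher (2.06%) and 65 lower (1.03%). Against the 828 cells that match them in class II, it called 1139 of 9371 genes (12.2%), 609 higher (6.5%) and 530 lower (5.66%). Against all cells with at least 2 resident UMIs it called 2288 of 10128 genes (22.6%). These comparisons use the same members and the first has the fewer cells, so the counts are not a test of one against another.

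Single genes took different patterns over the 4 sets. Ciita averaged 148 CPM in members and 94.1 CPM in class II high cells with resident UMIs, against 17.8 and 7.52 CPM in the class II low sets without and with them. H2-DMb1 followed the same order. Tmem119, a membrane protein best known from microglia, averaged 58.4 CPM in members and 26.4 CPM in class II low cells without resident UMIs, against 13.3 and 4.92 CPM in the 2 sets with resident UMIs. F11r, a junction protein, the survival gene Bcl2a1a and Ramp1, a receptor subunit for the neuropeptide CGRP, had the same order of means. Cx3cr1 and Il1b, described with no test, had this order too. Ccr2 averaged 242 CPM in members, against 49.6, 57.9 and 6.07 CPM in the other sets, and its fold over the class II low cells without resident UMIs was not called (log2 fold 2.02, edgeR adjusted p = 0.139). Ferroportin averaged 15.3 CPM in members, against 87.9, 85.7 and 149.96 CPM in the other 3 sets, with a fall of 2.32 against the class II low cells without resident UMIs (edgeR adjusted p = 1.17e-05).

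**Figure D4:**
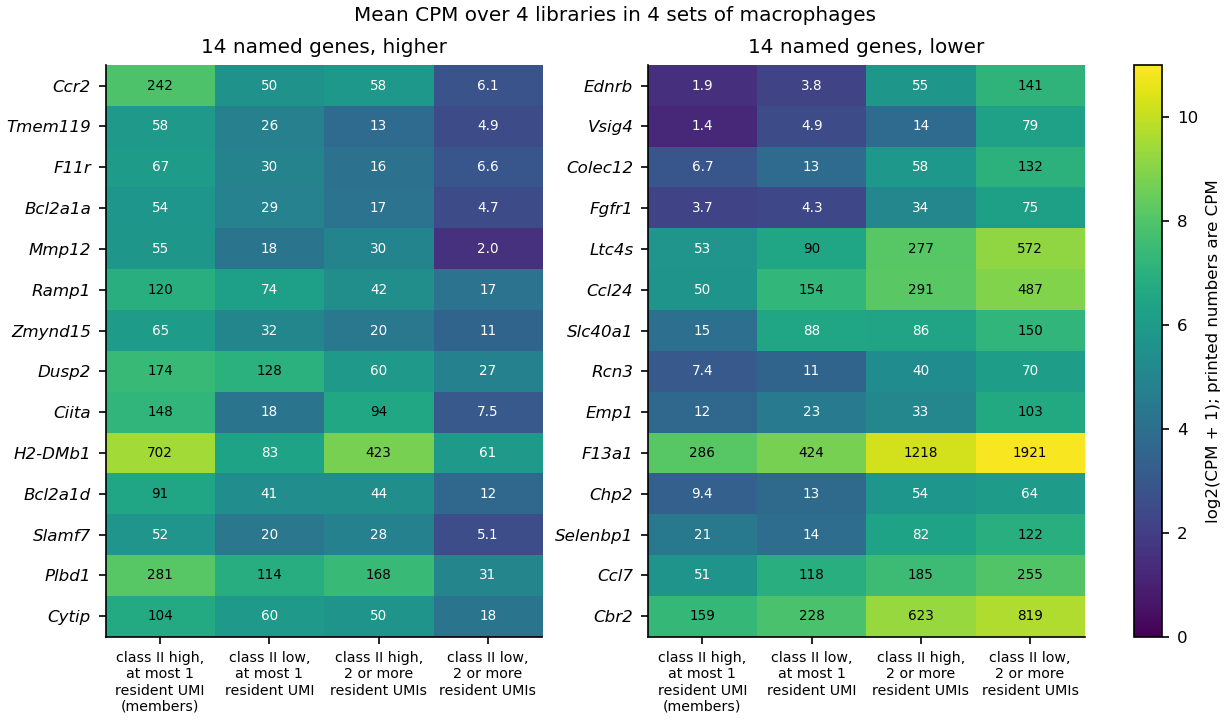
Mean CPM over 4 libraries of the 14 named genes of largest rise (left) and the 14 of largest fall (right) in members and in 3 sets of other macrophages; colour gives log2(CPM + 1) and the printed numbers give CPM. Ciita and H2-DMb1 are high in both class II high sets, Tmem119, F11r and Ramp1 are higher in both sets with at most 1 resident UMI than in the sets with 2 or more, and ferroportin (Slc40a1) is lowest in members, at 15.3 CPM.

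Between the diets, no gene of the members passed the test. The question was whether maternal fibre changed these cells in the offspring, with members of high_fibre 1 and 2 (499 cells) against those of control_diet 1 and 2 (232 cells). The edgeR quasi-likelihood test called 0 of 8773 genes (0%) at an adjusted p under 0.05. At an unadjusted p under 0.05 it gave 360 genes (4.1%), and DESeq2 called 2, the matrix gene Fn1 and the topoisomerase Top2a. In 2903 genes (33.1%) both libraries of one diet lay above both of the other. With 1 library left out, the count was 24 without high_fibre 1, 70 without high_fibre 2, 21 without control_diet 1 and 10 without control_diet 2. In those fits a lone library was assumed to vary like the pair of the other diet.

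The class II genes of the rule, described with no test, lay close together between diets. Cd74 stood at 28857 and 25772 CPM in high_fibre members, against 29148 and 28129 CPM in control_diet members. H2-Eb1 stood at 8404.5 and 8258 CPM in high_fibre members, against 7969 and 9993 CPM in control_diet members. H2-Aa stood at 8335 and 8236 CPM in high_fibre members, against 8757 and 9836 CPM in control_diet members. Of the 15 accessory genes 0 were called. Cx3cr1 stood at 372 and 508 CPM in high_fibre members, against 590.0 and 545 CPM in control_diet members, a log2 fold of -0.37 (SE 0.17, edgeR adjusted p = 1).

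Of the uncalled genes whose libraries did not overlap, those with a mean of at least 50 CPM and the highest folds were Lyz1, Retnla, Hspb1, Stmn1, Hsph1 and Dnajb1. Lyz1, a lysozyme whose reads may not separate fully from those of Lyz2, stood at 277 and 56.3 CPM in high_fibre members, against 20.96 and 3.24 CPM in control_diet members, a log2 fold of 3.46 (SE 1.48, edgeR adjusted p = 1). A few cells carried it: 1 cell held 437 of the 665 Lyz1 UMIs of high_fibre 1. Retnla, a secreted protein of alternatively activated macrophages, stood at 410.2 and 419 CPM in high_fibre members, against 139 and 12.9 CPM in control_diet members. Few cells carried Retnla in either diet. It was seen in 11 members of high_fibre 1 and 7 of high_fibre 2, where 1 cell held 691 of 986 and 324 of 886 UMIs. In control_diet 1 all 219 UMIs came from 1 cell. Stmn1, a regulator of microtubules, stood at 146 and 92.7 CPM in high_fibre members, against 41.9 and 38.8 CPM in control_diet members (log2 fold 1.56, SE 0.25, edgeR adjusted p = 0.254).

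Heat shock genes were on the high side of the high_fibre members as a list, and none was called. All 13 tested had a log2 fold above 0, against 50.4% of all genes, with a median of 0.76 against 0.00, and 10 of the 13 did not overlap between diets, against 16.9% of all genes in that direction. Hspa1a, an inducible HSP70 whose reads may not separate fully from Hspa1b, stood at 4158 and 3418 CPM in high_fibre members, against 2708 and 2307 CPM in control_diet members (log2 fold 0.60, SE 0.14, edgeR adjusted p = 0.689). Hspb1, a small heat shock protein, stood at 732 and 291 CPM in high_fibre members, against 158 and 90.6 CPM in control_diet members. Other macrophages had diet folds of like size, 1.91 for Hspb1 against 2.00 in members, and the difference between these folds was 0.09 (SE 0.11, limma adjusted p = 0.963).

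At the other end, the uncalled non-overlapping genes with the lowest folds included Gm47283, Ms4a7, Gpr34, Tmem86a and Zmynd15. Ms4a7, a membrane protein of macrophages (chr19:11321039-11336146), stood at 408 and 441 CPM in high_fibre members, against 681 and 731 CPM in control_diet members. The 2 libraries of each diet lay close together, and the log2 fold was -0.73 (SE 0.14, edgeR adjusted p = 0.362). Gpr34, a receptor for lysophosphatidylserine, stood at 54.9 and 115 CPM in high_fibre members, against 146 and 133 CPM in control_diet members. Gm47283 (chromosome Y) stood at 46.2 and 56.8 CPM in high_fibre members, against 117 and 85.7 CPM in control_diet members. It did not run with Ddx3y, a Y-linked gene used to type cells by sex. Ddx3y stood at 63.2 and 41.2 CPM in high_fibre members, against 22.2 and 42.1 CPM in control_diet members.

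**Figure D5:**
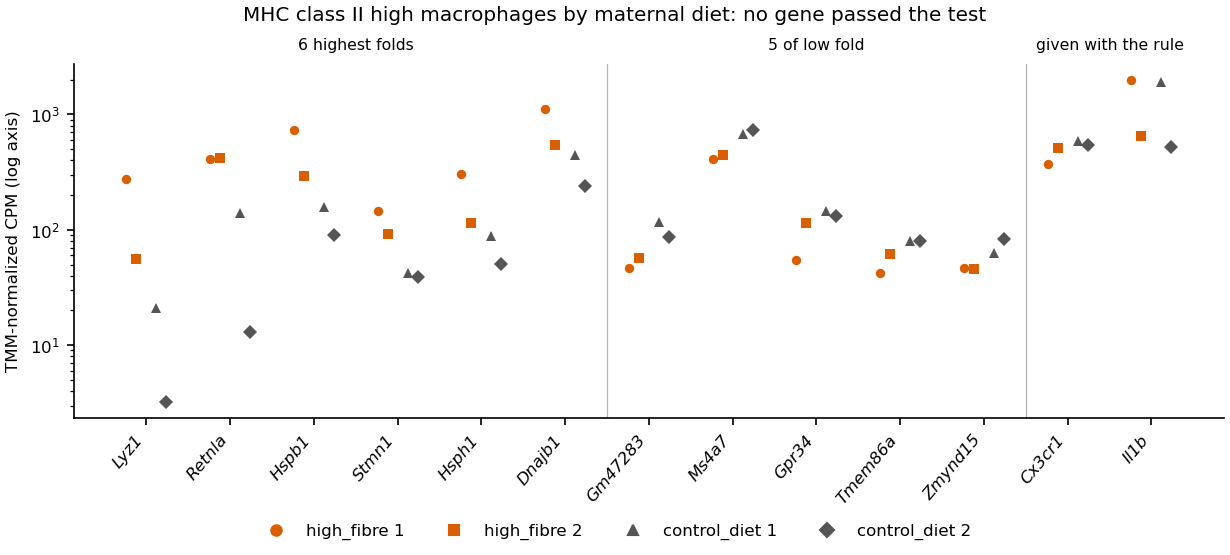
TMM-normalized CPM (log axis) of 13 genes in members, with the high_fibre libraries in orange left of the control_diet libraries in grey, 1 symbol per library. The 11 genes of high and low fold did not overlap between diets and none passed the test; Il1b stood at 1987 and 654 CPM in high_fibre members, against 1889 and 523 CPM in control_diet members, so that its values differed more between repeats than between diets.

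The libraries also differed in sex and in traces of other cells. Among members with Xist or Y-linked UMIs but not both, those with Y-linked UMIs were 79.8% and 49.4% in the high_fibre libraries and 21.1% and 62.5% in the control_diet libraries. Neutrophil markers summed to 287 and 18.0 CPM in high_fibre members, against 14.2 and 37.6 CPM in control_diet members. Natural killer cell markers summed to 3.06 and 80.2 CPM in high_fibre members, against 0.68 and 6.84 CPM in control_diet members. Erythroid markers summed to 50.7 and 41.6 CPM in high_fibre members, against 15.5 and 20.5 CPM in control_diet members. Dendritic markers summed to 89.6 and 136 CPM in high_fibre members, against 55.4 and 65.0 CPM in control_diet members. Their part in the diet values was not tested.

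Whether a diet difference was particular to the members was tested on the within-library difference between members and other macrophages. Limma called 4 of 10165 genes (0.0394%), all with a higher diet fold in members: Birc5, Ccnb2 and Ube2c, which act in mitosis, and Fgfr1, a receptor of fibroblast growth factors. Birc5 had 25 and 31 UMIs in high_fibre members (10.4 and 14.7 CPM), against 0 and 0 UMIs in control_diet members. Ccnb2 had 12 and 22 UMIs, against 0 and 0. Ube2c had 15 and 29 UMIs, against 1 and 0. In other macrophages the diet folds of these genes were -0.06, -0.86 and -1.47 and were not called by edgeR.

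The mitotic genes came from few cells. Of the high_fibre members, 5 of 263 and 5 of 236 held at least 3 of 10 cell cycle genes, against 0 of 178 and 0 of 54 control_diet members. The shares were 1.90% and 2.12% in the high_fibre libraries (exact binomial 95% intervals 0.620% to 4.38% and 0.691% to 4.87%). In the control_diet libraries a count of 0 has exact upper limits of 2.05% and 6.60%. These intervals cover counting error within a library and not the spread between libraries, so they cannot compare the diets. The share was not tested between diets. In other macrophages the shares were 3.35% and 6.51% in the high_fibre libraries and 3.91% and 4.76% in the control_diet libraries. None of the 10 cells carried a shared barcode or was called a doublet. The 14 tested cell cycle genes had a median diet log2 fold of 1.16 in members, 12 of them above 0 and 0 called. With the cells that held at least 3 of the 10 genes left out, limma called 1 gene, Fgfr1. The 10 genes include Birc5, Ccnb2 and Ube2c. Leaving out these cells was therefore bound to lower the counts of those genes, and it is no test of them.

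Fgfr1 was low in members and spread over many cells. It had 15 and 16 UMIs in high_fibre members, in 10 and 12 cells and never more than 3 in a cell, against 0 and 0 UMIs in control_diet members. Other macrophages held 62.8 and 52.1 CPM in the high_fibre libraries and 50.3 and 54.5 CPM in the control_diet libraries. The fitted difference of diet effects was 4.04 on the log2 scale (SE 0.42, limma adjusted p = 0.00564), a value that depends on the prior count, since both control_diet libraries were at 0. With a prior count of 0.5 the test called 3 genes, and Ube2c was not among them. The count of calls was unstable: with 1 library left out limma called 0 genes without high_fibre 1, 1 (Spp1) without high_fibre 2, 823 without control_diet 1 and 69 without control_diet 2.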

How the data were processed

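Single-cell RNA-seq of 4 heart libraries was used. The authors deposited UMI counts per gene and barcode, whole numbers that were not normalized, made with Cell Ranger 3.1.0 on mm10 per the submitters' processing notes; filters applied before deposit are not given in the sources used here. Library totals were 27577599 to 69600492 UMIs. Doublets were limited by the marker limits of the rule and by no caller; removal by a doublet score was an alternative. Counts of members and of other macrophages were summed per library and tested with edgeR 4.0.16 (TMM, filterByExpr minimum count 10, robust quasi-likelihood test, Benjamini-Hochberg threshold 0.05) in R 4.3.3. The difference of diet effects used limma 3.58.1 on within-library log2 CPM differences (prior count 2), and shares used an exact permutation test (scipy 1.17.1). Rule and mitochondrial genes were not tested, nor Cx3cr1 and Il1b against other macrophages. DESeq2 1.42.0, thinning, other thresholds, sex-typed cells and leaving out libraries were alternatives. Intervals and limits cover counting error only. The members and the gene lists were chosen with earlier results of these data known. Named against other macrophages were the 14 called genes of largest fold in each direction with a mean of at least 50 CPM and the same direction in 4 of 4 libraries; by diet, the 6 non-overlapping genes in each direction by the same minimum, since 0 genes were called; and, of each list, examples among genes of at least 20 CPM. H2-Oa, H2-Ob, H2-DMb2, the Rfx genes, Cd40, Itgax, Spn, Irf4, Slc16a3 and further list members were chosen after their values were seen. Coordinates are those of GENCODE M21 (GRCm38). Some genes that these rules name are not reported here.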

Additional observations from a re-analysis of the deposited data

Results flagged for a closer look

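Birc5, Ccnb2, Ube2c and Fgfr1 had a diet effect in the class II high macrophages that differed from that in other macrophages by limma's test of the difference. The fitted differences were 5.17 for Birc5 (SE 0.47, limma adjusted p = 0.00247), 5.25 for Ccnb2 (SE 0.65, limma adjusted p = 0.0189), 5.40 for Ube2c (SE 0.66, limma adjusted p = 0.0279) and 4.04 for Fgfr1 (SE 0.42, limma adjusted p = 0.00564) on the log2 scale. Birc5, Ccnb2 and Fgfr1 were at 0 UMIs in both control_diet libraries and Ube2c at 1 and 0, so these values and their SEs rest on the prior count of 2 and are no measured sizes. With a prior count of 0.5 they were 7.14, 7.22, 6.62 and 5.97 for Birc5, Ccnb2, Ube2c and Fgfr1, and Ube2c was no longer called (limma adjusted p = 0.951). In 2 of 2 high_fibre libraries members held more UMIs than in either control_diet library. The UMIs of Birc5 came from 9 high_fibre members, those of Ccnb2 from 8, those of Ube2c from 13 and those of Fgfr1 from 22.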

How the results depend on the processing

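By diet, where the test called 0 genes, DESeq2 called 2 (2 higher), cells typed by Xist alone 3 (3 higher), cells typed by Y-linked genes alone 1 (1 higher), thinned cells 1 (1 higher) and no filter on low counts 38 (35 higher, 3 lower). Without shared barcodes, chosen after seeing the data, 1 gene was called (1 higher, Fn1). With 1 library left out, 10 to 70 genes were called (8 to 61 higher, 2 to 9 lower). The replicate block called 12 genes (11 higher, 1 lower), among them 6 heat shock genes and Ms4a7, and for the difference of diet effects 30 (25 higher, 5 lower); with 2 pairs, whose differences correlated at r = 0.12, the numbers were not taken as pairing the libraries. Against other macrophages, the 2210 calls became 1402 with DESeq2 (817 higher, 585 lower), 1317 without the library block (678 higher, 639 lower) and 1230 after thinning (720 higher, 510 lower). They were 195 against other macrophages with at most 1 resident UMI (130 higher, 65 lower) and, added after seeing the data, 1139 against those with class II of at least 1% (609 higher, 530 lower). With 1 library left out, 1603 to 2125 were called (880 to 1220 higher, 716 to 905 lower). Selenbp1 turned round against other macrophages with at most 1 resident UMI (log2 fold 0.36, edgeR adjusted p = 0.833). The 4 calls of the difference of diet effects became 1 without cells holding cell cycle genes (1 higher), also added later, and 0 to 823 with 1 library left out (0 to 591 higher, 0 to 232 lower). The cell cycle genes that picked the cells left out include Birc5, Ccnb2 and Ube2c, so the loss of those calls was bound up with the choice. The difference in share was -1.87 to 5.43 points with 1 library left out. The causes were not tested. Control_diet 2, with 54 members, limits the depth of every diet comparison.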

Other observations

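Cx3cr1 and Il1b were found both together and apart in class II high macrophages. Cx3cr1 UMIs were in 143 and 148 high_fibre members and 133 and 38 control_diet members thinned to 3000 UMIs, and Il1b UMIs in 180 and 119 high_fibre members and 123 and 22 control_diet members. With both genes this frequent, many cells hold both without any association, and an association was not tested. Among members thinned to 3000 UMIs, 112 of 245 and 89 of 213 held UMIs of both in the high_fibre libraries, and 96 of 175 and 18 of 50 in the control_diet libraries. Cx3cr1 alone was found in 31 and 59 high_fibre members and 37 and 20 control_diet members, and Il1b alone in 68 and 30 high_fibre members and 27 and 4 control_diet members. Ccr2 UMIs were found in 36 and 51 high_fibre members and 31 and 9 control_diet members, of which 20 and 33, and 22 and 6, also held Cx3cr1.

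Dusp2, a phosphatase of MAP kinases, had values split by repeat, as Il1b did. It stood at 227 and 89.9 CPM in high_fibre members, against 246 and 74.4 CPM in control_diet members, with the repeat 1 library the higher in each diet.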
